A study of Arabidopsis thaliana with 36 samples.

Results

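The transcripts of wild-type (WT, Col-0) Arabidopsis thaliana seedlings after 8 h of simulated shade were compared with those after 1 h, to separate early shade responses that had receded by 8 h from responses that were seen only later. All genes of the deposited count table were considered in 6 of the 36 libraries of the series, 3 at 8 h and 3 at 1 h. Of 32833 genes in the table, 21562 passed a filter on low counts and were tested. The seedlings were 7 days old, had grown in continuous white light, and were harvested whole after 8 h or 1 h of white light to which far-red light had been added, or at 0 h, just before shade. Each group held 3 biological replicates of pooled seedlings. For comparison the same times were taken from hy5 and from hy5 pif457, mutants that the labels name by genotype without alleles. HY5 is a bZIP factor that promotes development in light. PIF4, PIF5 and PIF7 are bHLH factors that promote elongation in shade. The samples analysed here include no seedlings kept in white light until 1 or 8 h, so shade cannot be told apart from elapsed time. In whole seedlings, fewer cells of a type and less RNA per cell cannot be told apart.

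Plants sense neighbours as a fall in the ratio of red to far-red light. Under this light phytochrome B returns to its inactive form, PIF proteins accumulate, and genes for auxin synthesis and for HD-ZIP class II factors are induced quickly. Auxin then induces Aux/IAA, GH3 and SAUR genes, whose products repress auxin signalling, conjugate auxin and promote cell expansion. Negative regulators such as HFR1, HY5 and phytochrome A limit the response when shade lasts.

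Library totals were 31849621 to 44312524 counts in the 6 libraries. Levels are in CPM, that is, counts relative to the TMM-adjusted library total, which are not corrected for gene length and so are compared between groups and not between genes. Values of 3 libraries are given in the order of replicates 1, 2 and 3, which were not treated as paired across groups. Effects are log2 fold changes of 8 h over 1 h with their standard error. A gene was called higher or lower where the adjusted p of the edgeR quasi-likelihood test, adjusted over all 21562 genes, was under 0.05. A gene that was not called is not shown to be alike at both times. Markers of root tissue differed among libraries of the same group. The 22 root markers summed to 110.1, 29.8 and 54.5 CPM at 8 h, against 69.2, 203 and 246 CPM at 1 h, and 1 of them was at 0 in replicate 2 at 8 h and 1 in replicate 1 at 1 h. The 7 green shoot markers summed to 61529 to 67769 CPM at 8 h and 48678 to 61550 CPM at 1 h. The 15 rRNA genes took 0.467 to 0.815% of counts in these 6 libraries. HY5 (AT5G11260) stood at 19.5 to 26.1 CPM in WT at 8 h and 10.7 to 12.7 CPM at 1 h, above the 3.44 to 6.03 CPM of the hy5 libraries. PIF5 and PIF7 did not exceed 3.68 CPM in hy5 pif457, whereas the PIF4 transcript stood at 27.7 to 53.8 CPM there and was not lost.

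Between 1 h and 8 h of shade 1760 genes were called, which is 8.16% of those tested. Of these, 962 (4.46%) were higher at 8 h and 798 (3.7%) were lower. At least 2-fold differences were seen for 261 of the higher and 427 of the lower genes, and the median log2 fold change of all genes was -0.02. The libraries at 8 h did not overlap those at 1 h for 1650 of the called genes, and for 5883 of all genes tested (27.3%). Among the lists, 17 of 32 clock genes and 13 of 21 light signalling genes were called higher. The lists of HD-ZIP class II genes, GH3 conjugating enzymes, SAUR, cytokinin and glucosinolate genes held members called lower and none called higher by edgeR, while DFL2, a GH3-family gene of the auxin synthesis and transport list, was called higher. With replicate 2 at 8 h left out 1054 genes were called, with replicate 3 at 8 h left out 979, and with replicate 2 at 1 h left out 1159. Against the 798 genes called lower with all libraries, 326 and 349 were called lower without replicate 2 or 3 at 8 h, and 418 and 461 without replicate 2 or 3 at 1 h. With replicate 3 at 8 h left out 630 genes were called higher. Set against 0 h, 1121 genes (5.2%) were called at 1 h and 4131 (19.2%) at 8 h. These comparisons share libraries with that of 8 h and 1 h, so their values stand beside it only to show where a gene stood before shade. The 1 h count ran from 509 without WT 0 h replicate 3 to 2484 without WT 0 h replicate 2 and moved by over 1.5 times with each of the 6 libraries. The 8 h count was 2096 with replicate 3 at 8 h left out, and 2211 and 2387 with replicate 1 or 3 at 0 h left out.

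**Figure D1:**
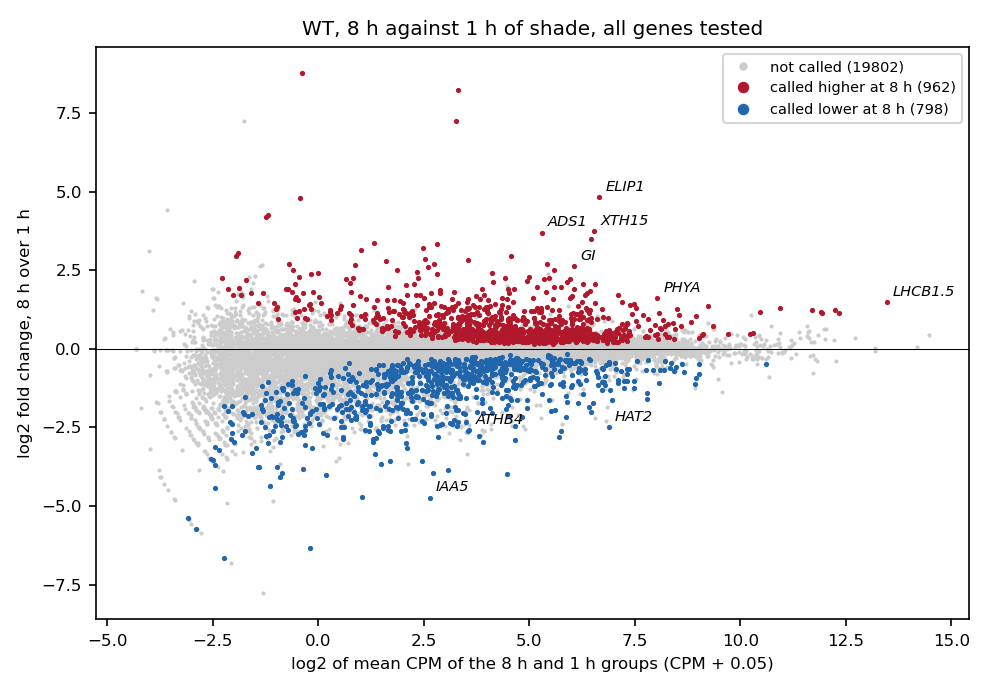
Log2 fold change of 8 h over 1 h in WT against mean log2 CPM for the 21562 genes tested, with the 962 genes called higher and 798 called lower coloured and 9 genes named. Among the named genes ELIP1, XTH15 and ADS1 lie highest and IAA5 (-4.73), ATHB4 (-2.59) and HAT2 (-2.49) lowest.

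The genes at both ends of the comparison are shown by the 250 bases before their annotated transcript start (RefSeq, TAIR10.1, each written in the direction of transcription). They are the 3 highest and 3 lowest named genes, chosen among calls whose groups did not overlap and whose log2 CPM averaged 2 or more. All promoters, from 250 bases before to 50 after the start, were searched on both strands for CACGTG, the G-box bound by PIFs and HY5, for CACATG, the PBE-box, for TGTCTC, an auxin response element, for AAAATATCT, the evening element, and for GATAAG. Capitals mark matches, none of which overlap in the stretches printed. ELIP1 lies at chr3:8085670-8085919 on the minus strand, XTH15 at chr4:8138393-8138642 on the minus strand and ADS1 at chr1:1843213-1843462 on the plus strand. BHLH38 lies at chr3:21085246-21085495, BHLH100 at chr2:17199455-17199704 and ATHB4 at chr2:18519732-18519981, all on the minus strand.
ELIP1: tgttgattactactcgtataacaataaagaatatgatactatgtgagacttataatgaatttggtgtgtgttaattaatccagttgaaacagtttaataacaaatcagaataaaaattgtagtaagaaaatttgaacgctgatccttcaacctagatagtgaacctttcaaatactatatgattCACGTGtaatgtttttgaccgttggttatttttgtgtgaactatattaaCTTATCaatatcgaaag
XTH15: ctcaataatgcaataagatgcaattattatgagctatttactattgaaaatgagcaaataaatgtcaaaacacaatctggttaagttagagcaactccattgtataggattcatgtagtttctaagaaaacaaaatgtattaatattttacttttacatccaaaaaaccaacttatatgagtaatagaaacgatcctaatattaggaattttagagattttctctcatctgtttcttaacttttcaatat
ADS1: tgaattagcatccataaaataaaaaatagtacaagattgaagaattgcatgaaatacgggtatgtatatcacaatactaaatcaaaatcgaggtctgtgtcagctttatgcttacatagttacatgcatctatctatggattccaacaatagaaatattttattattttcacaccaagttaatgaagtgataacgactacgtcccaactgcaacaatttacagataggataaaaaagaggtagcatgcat
BHLH38: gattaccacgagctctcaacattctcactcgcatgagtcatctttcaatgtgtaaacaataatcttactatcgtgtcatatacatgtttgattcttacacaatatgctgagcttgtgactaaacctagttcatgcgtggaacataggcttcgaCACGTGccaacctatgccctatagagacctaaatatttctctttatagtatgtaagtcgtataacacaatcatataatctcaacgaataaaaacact
BHLH100: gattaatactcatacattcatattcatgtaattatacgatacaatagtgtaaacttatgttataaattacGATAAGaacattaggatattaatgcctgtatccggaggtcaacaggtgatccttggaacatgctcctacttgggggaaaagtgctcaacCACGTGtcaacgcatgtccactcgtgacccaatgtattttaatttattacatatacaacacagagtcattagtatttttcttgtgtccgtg
ATHB4: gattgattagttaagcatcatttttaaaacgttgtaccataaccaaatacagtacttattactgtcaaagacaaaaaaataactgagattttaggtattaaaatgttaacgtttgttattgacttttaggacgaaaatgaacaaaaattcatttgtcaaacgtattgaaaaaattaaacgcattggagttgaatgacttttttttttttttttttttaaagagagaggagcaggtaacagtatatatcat
ELIP1 held CACGTG at -66 and, on the reverse strand, GATAAG at -17 from the start. BHLH38 held CACGTG at -97, and BHLH100 held CACGTG at -91 and GATAAG at -180. The letters of these 5 motifs were not in the stretches of XTH15, ADS1 and ATHB4. Of 21430 promoters of tested genes, 8.67% held CACGTG, as did 9.26% of 961 promoters of genes called higher and 12.8% of 797 promoters of genes called lower. CACATG was in 13.0% of all, 18.3% of higher and 15.2% of lower genes. AAAATATCT was in 2.95% of all, 5.31% of higher and 2.26% of lower genes. TGTCTC was in 13.8%, 14.0% and 15.8%, and GATAAG in 14.9%, 15.7% and 14.1%, of all, higher and lower genes. A match describes the letters and is not a bound site.

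Most genes of the HD-ZIP class II family, transcription factors of which several are early shade targets, had lower levels at 8 h. Of the 10 HD-ZIP class II genes tested, 0 were called higher by edgeR (0 at an unadjusted p under 0.05, 0 by DESeq2) and 8 lower at 8 h than at 1 h (median log2 fold change -0.91). HAT9 and HAT14 were not called. HAT2 (AT5G47370) had 38.1, 34.4 and 34.2 CPM at 8 h, against 200.2, 195 and 206 CPM at 1 h, and 16.4, 13.6 and 14.8 CPM at 0 h. Its libraries at 8 h lay far below those at 1 h and above those at 0 h (log2 fold change -2.49 ± 0.17, edgeR adjusted p = 4.01e-10). ATHB4 (AT2G44910) had 2.95, 3.86 and 3.31 CPM at 8 h, against 20.6, 18.8 and 21.6 CPM at 1 h (log2 fold change -2.59 ± 0.22, edgeR adjusted p = 7.75e-09). At 0 h it had 2.01, 1.84 and 2.66 CPM, close below its level at 8 h. ATHB2, the classical marker of far-red-rich light, had 65.1, 73.9 and 69.6 CPM at 8 h, against 129.9, 128 and 128 CPM at 1 h, and 5.55, 4.56 and 4.90 CPM at 0 h (log2 fold change -0.89 ± 0.13, edgeR adjusted p = 4.15e-05). HAT1 (-0.74 ± 0.08, adjusted p = 7.62e-07 by edgeR), HAT3 (-0.93 ± 0.19, adjusted p = 0.00185) and ATHB17 (-1.94 ± 0.39, adjusted p = 0.00134) were also lower at 8 h. Calls of all 8 genes held with each single library of the 6 left out.

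**Figure D2:**
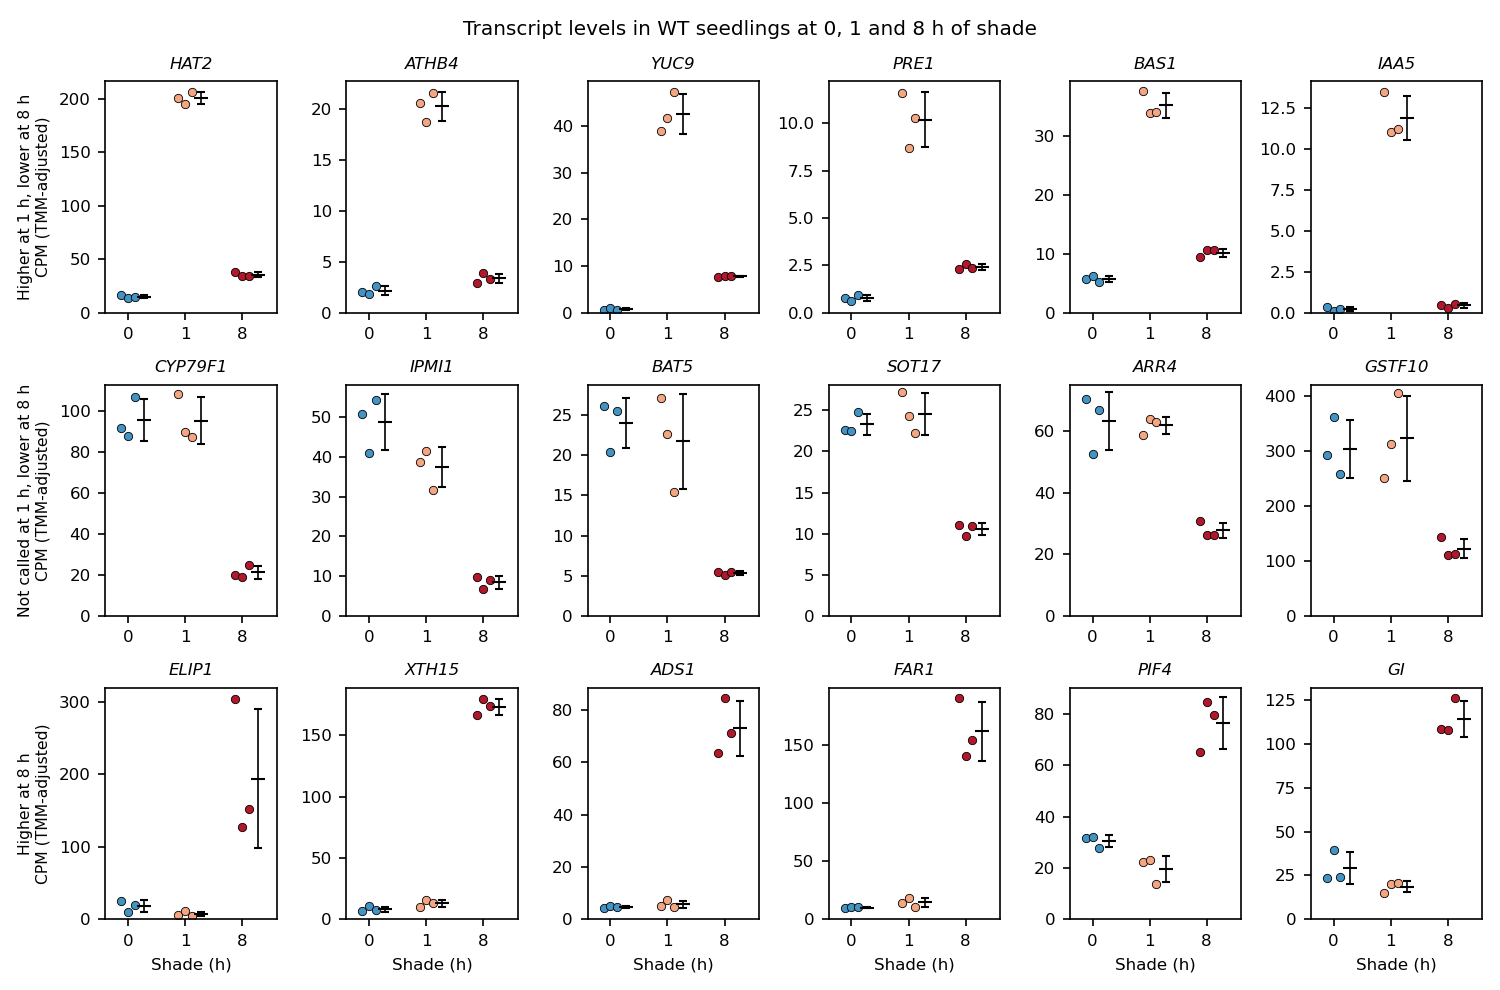
CPM of 18 genes in WT at 0, 1 and 8 h of shade (points are the 3 libraries of a group, bars the mean and SD). The upper row shows genes higher at 1 h than at 0 h and lower at 8 h than at 1 h (HAT2, ATHB4, YUC9, PRE1, BAS1, IAA5), the middle row genes not called between 1 h and 0 h and lower at 8 h than at both (CYP79F1, IPMI1, BAT5, SOT17, ARR4, GSTF10), and the lower row genes higher at 8 h (ELIP1, XTH15, ADS1, FAR1, PIF4, GI).

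Auxin synthesis genes split within the YUCCA family of flavin monooxygenases, which make auxin from indole-3-pyruvate. Of the 23 auxin synthesis and transport genes tested, 2 were called higher by edgeR and 3 lower at 8 h than at 1 h (median log2 fold change -0.03). YUC9 (AT1G04180) had 7.69, 7.84 and 7.83 CPM at 8 h, against 38.9, 41.9 and 47.2 CPM at 1 h (log2 fold change -2.45 ± 0.34, edgeR adjusted p = 1.94e-05). YUC5 (AT5G43890) had 1.33, 1.18 and 1.36 CPM at 8 h, against 5.96, 6.20 and 8.39 CPM at 1 h (log2 fold change -2.40 ± 0.38, edgeR adjusted p = 0.000102), and 1.53, 1.29 and 1.71 CPM at 0 h. Both stood lower at 8 h than at 1 h, and YUC5 libraries at 8 h overlapped those at 0 h. YUC8 (AT4G28720) and YUC2 (AT4G13260) were not called between 8 h and 1 h. YUC8 had 20.9, 22.4 and 23.2 CPM at 8 h, against 19.3, 20.9 and 21.8 CPM at 1 h, and 1.25, 1.38 and 1.00 CPM at 0 h (log2 fold change 0.10 ± 0.31, edgeR adjusted p = 0.878). YUC2 had 8.32, 10.2 and 9.16 CPM at 8 h, against 9.37, 9.33 and 10.9 CPM at 1 h (log2 fold change -0.10 ± 0.20, edgeR adjusted p = 0.811). The levels of YUC8 and YUC2 at 8 h overlapped those at 1 h and lay above those at 0 h. The third gene called lower was TAA1, the aminotransferase before the YUCCA step (-0.45 ± 0.13, adjusted p = 0.0316 by edgeR), and without WT 8 h replicate 2, WT 8 h replicate 3, WT 1 h replicate 1, WT 1 h replicate 2 or WT 1 h replicate 3 the adjusted p was 0.0510 to 0.259. Of the 2 genes called higher, DFL2, a GH3-family gene, had 60.4, 76.2 and 74.7 CPM at 8 h, against 27.1, 26.4 and 17.7 CPM at 1 h (log2 fold change 1.57 ± 0.20, edgeR adjusted p = 4.46e-06). The other was ABCB19, an auxin exporter (0.41 ± 0.12, adjusted p = 0.0285 by edgeR), and without WT 8 h replicate 3, WT 1 h replicate 1 or WT 1 h replicate 2 the adjusted p was 0.0675 to 0.117.

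Among Aux/IAA genes, whose proteins repress auxin-responsive transcription, some were lower at 8 h and others higher. Of the 28 Aux/IAA repressors tested, 4 were called higher by edgeR and 7 lower at 8 h than at 1 h (median log2 fold change -0.18). With any single WT library at 8 h or 1 h left out, 5 or 6 were called lower. IAA2 was called in none of those fits (edgeR adjusted p 0.0724 to 0.222). IAA4 was called in only 1 of them, without WT 1 h replicate 2, and had an adjusted p of 0.0735 to 0.409 in the others. IAA5 (AT1G15580) had 0.484, 0.295 and 0.540 CPM at 8 h, against 13.5, 11.02 and 11.2 CPM at 1 h, and 0.356, 0.110 and 0.236 CPM at 0 h (log2 fold change -4.73 ± 0.61, edgeR adjusted p = 5.82e-06). IAA1 (AT4G14560) had 11.7, 11.5 and 11.7 CPM at 8 h, against 36.1, 34.4 and 33.0 CPM at 1 h (log2 fold change -1.57 ± 0.26, edgeR adjusted p = 0.000139). IAA3 (AT1G04240) had 29.9, 36.8 and 34.7 CPM at 8 h, against 88.1, 69.9 and 71.3 CPM at 1 h (log2 fold change -1.18 ± 0.17, edgeR adjusted p = 2.86e-05). These groups did not overlap, and IAA5 libraries at 8 h overlapped those at 0 h. IAA7, IAA14, IAA26 and IAA34 were the 4 called higher. IAA7 (AT3G23050) had 232, 240.1 and 248 CPM at 8 h, against 124, 122 and 146 CPM at 1 h, and 67.6, 84.6 and 67.7 CPM at 0 h (log2 fold change 0.88 ± 0.20, edgeR adjusted p = 0.00477). IAA34 (AT1G15050) had 2.06, 2.80 and 2.73 CPM at 8 h, against 0.411, 0.844 and 0.378 CPM at 1 h (log2 fold change 2.21 ± 0.44, edgeR adjusted p = 0.00150). IAA7 was thus higher at each later time, and IAA34 was higher in every library at 8 h than at 1 h. IAA19 had 26.6, 35.6 and 29.8 CPM at 8 h, against 52.4, 58.1 and 53.8 CPM at 1 h, and IAA29 36.6, 46.3 and 43.5 CPM at 8 h, against 71.8, 62.2 and 75.4 CPM at 1 h. Neither was called (log2 fold change -0.84 ± 0.28, edgeR adjusted p = 0.0651 for IAA19; -0.73 ± 0.26, adjusted p = 0.0819 for IAA29), although their libraries at 8 h lay below those at 1 h.

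GH3 genes of auxin conjugation and SAUR genes of cell expansion had members called lower. Of the 9 GH3 conjugating enzymes tested, 0 were called higher by edgeR (1 at an unadjusted p under 0.05, 0 by DESeq2) and 3 lower at 8 h than at 1 h (median log2 fold change 0.09). GH3.3 (AT2G23170) had 30.1, 27.8 and 33.5 CPM at 8 h, against 75.9, 97.5 and 87.6 CPM at 1 h, and 7.08, 9.68 and 6.70 CPM at 0 h (log2 fold change -1.51 ± 0.35, edgeR adjusted p = 0.00660). GH3.2 (AT4G37390) had 5.20, 4.45 and 4.79 CPM at 8 h, against 11.9, 14.7 and 11.6 CPM at 1 h (log2 fold change -1.402 ± 0.25, edgeR adjusted p = 0.000449). GH3.1 was the third (-2.2 ± 0.54, adjusted p = 0.00976 by edgeR), and without WT 8 h replicate 3 or WT 1 h replicate 2 the adjusted p was 0.0565 to 0.0647. Of the 31 SAUR genes tested, 0 were called higher by edgeR (0 at an unadjusted p under 0.05, 0 by DESeq2) and 12 lower at 8 h than at 1 h (median log2 fold change -0.51). The 12 lower genes had log2 fold changes of -1.71 to -0.92. For SAUR15 without WT 8 h replicate 1, WT 8 h replicate 3 or WT 1 h replicate 1 the adjusted p was 0.0711 to 0.105, for SAUR21 without WT 8 h replicate 3 the adjusted p was 0.0547, and for SAUR65 without WT 8 h replicate 2, WT 8 h replicate 3 or WT 1 h replicate 3 the adjusted p was 0.0606 to 0.1004. SAUR28 (AT3G03830) had 2.15, 2.77 and 2.63 CPM at 8 h, against 7.64, 7.59 and 6.88 CPM at 1 h, and 0.178, 0.275 and 0.236 CPM at 0 h (log2 fold change -1.55 ± 0.26, edgeR adjusted p = 0.000229). SAUR66 (AT1G29500) had 10.6, 11.8 and 11.4 CPM at 8 h, against 22.6, 19.4 and 23.1 CPM at 1 h (log2 fold change -0.95 ± 0.19, edgeR adjusted p = 0.00151). All libraries of SAUR28 and SAUR66 at 8 h lay between those at 0 h and those at 1 h. For SAUR62, SAUR63 and SAUR67, 10% or more of the 50-base stretches also occur in other transcripts, so the values are uncertain. SAUR22 was not called and had 20.9, 22.9 and 19.4 CPM at 8 h, against 18.22, 18.3 and 22.3 CPM at 1 h, and 1.09, 0.440 and 0.472 CPM at 0 h (log2 fold change 0.10 ± 0.24, edgeR adjusted p = 0.842).

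HLH growth regulators moved both ways. Of the 23 HLH growth regulators tested, 7 were called higher by edgeR and 3 lower at 8 h than at 1 h (median log2 fold change 0.02). PRE1 (AT5G39860), an atypical HLH protein that promotes elongation, had 2.298, 2.59 and 2.37 CPM at 8 h, against 11.6, 8.68 and 10.3 CPM at 1 h, and 0.764, 0.632 and 0.945 CPM at 0 h (log2 fold change -2.07 ± 0.30, edgeR adjusted p = 2.97e-05). BIM1 (AT5G08130), a partner of the brassinosteroid factor BES1, had 93.2, 92.3 and 87.0 CPM at 8 h, against 206, 221 and 214 CPM at 1 h (log2 fold change -1.23 ± 0.15, edgeR adjusted p = 2.24e-06). PRE6 (AT1G26945) had 18.8, 21.4 and 22.5 CPM at 8 h, against 38.4, 33.5 and 28.7 CPM at 1 h (log2 fold change -0.68 ± 0.15, edgeR adjusted p = 0.00298). These 3 genes were lower at 8 h in every library. HFR1 (AT1G02340), which sequesters PIFs and so restrains the shade response, had 89.9, 119 and 108 CPM at 8 h, against 35.4, 26.7 and 22.3 CPM at 1 h, and 1.71, 1.35 and 1.06 CPM at 0 h (log2 fold change 1.91 ± 0.29, edgeR adjusted p = 5.72e-05). AIF1 (AT3G05800), an atypical bHLH that represses growth, had 21.4, 22.9 and 24.0 CPM at 8 h, against 9.49, 8.79 and 8.79 CPM at 1 h (log2 fold change 1.33 ± 0.12, edgeR adjusted p = 8.32e-09). BEE3 (AT1G73830) had 29.7, 32.0 and 30.4 CPM at 8 h, against 12.6, 8.57 and 9.08 CPM at 1 h (log2 fold change 1.60 ± 0.17, edgeR adjusted p = 4.50e-07). All 3 were higher at 8 h without overlap. CIB1 was also higher, but all of its 50-base stretches occur elsewhere in the reference transcripts and its value is uncertain. PIL1 (AT2G46970), a strongly induced shade marker, was not called: it had 45.2, 45.5 and 44.4 CPM at 8 h, against 53.8, 42.5 and 44.1 CPM at 1 h, and 0.560, 0.302 and 0.384 CPM at 0 h (log2 fold change -0.06 ± 0.28, edgeR adjusted p = 0.928).

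Hormone genes outside auxin also held early members that were lower at 8 h. Of the 19 brassinosteroid genes tested, 2 were called higher by edgeR and 3 lower at 8 h than at 1 h (median log2 fold change -0.16). BAS1 (AT2G26710), which inactivates brassinosteroids, had 9.36, 10.6 and 10.6 CPM at 8 h, against 37.6, 33.9 and 34.0 CPM at 1 h, and 5.75, 6.16 and 5.26 CPM at 0 h (log2 fold change -1.79 ± 0.15, edgeR adjusted p = 6.11e-09). DWF4 (AT3G50660), a rate-limiting hydroxylase of their synthesis, had 10.4, 11.2 and 11.8 CPM at 8 h, against 22.9, 23.1 and 23.4 CPM at 1 h, and 11.4, 14.1 and 12.7 CPM at 0 h (log2 fold change -1.06 ± 0.09, edgeR adjusted p = 4.49e-09). DWF4 libraries at 8 h overlapped those at 0 h, and BAS1 libraries lay above them. BRL3, the third called lower, was not called without WT 8 h replicate 2 or 3 or WT 1 h replicate 2 or 3. In those fits its adjusted p by edgeR was 0.05935 to 0.183. BR6OX1 was higher (1.15 ± 0.25, adjusted p = 0.00307 by edgeR), and the other gene called higher, BIN2, was not called without WT 8 h replicate 2, WT 8 h replicate 3 or WT 1 h replicate 2 (adjusted p 0.0772 to 0.105). Of the 20 gibberellin genes tested, 4 were called higher by edgeR and 3 lower at 8 h than at 1 h (median log2 fold change 0.00). GA3OX1 (AT1G15550), which makes active gibberellin, had 3.29, 1.71 and 2.02 CPM at 8 h, against 11.5, 11.6 and 7.97 CPM at 1 h (log2 fold change -2.14 ± 0.27, edgeR adjusted p = 3.12e-06). GA2OX1 (AT1G78440), which inactivates it, had 2.73, 3.095 and 3.43 CPM at 8 h, against 0.499, 0.544 and 0.425 CPM at 1 h (log2 fold change 2.65 ± 0.37, edgeR adjusted p = 1.61e-05). The receptor genes GID1A (-0.63 ± 0.08, adjusted p = 7.49e-06 by edgeR) and GID1C (0.80 ± 0.14, adjusted p = 0.000248) were called in opposite directions, GID1A lower and GID1C higher. RGL3 was called lower, but not without WT 8 h replicate 1, 2 or 3 or WT 1 h replicate 2 or 3. In those fits its edgeR adjusted p was 0.0737 to 0.215. RGA was called higher, but not without WT 8 h replicate 2 or 3 or WT 1 h replicate 1 or 2 (edgeR adjusted p 0.0723 to 0.1455).

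Cytokinin genes were lower or not called. Of the 29 cytokinin genes tested, 0 were called higher by edgeR (2 at an unadjusted p under 0.05, 0 by DESeq2) and 7 lower at 8 h than at 1 h (median log2 fold change -0.53). With WT 8 h replicate 2 left out, 4 were called lower. ARR7 (AT1G19050), a type-A response regulator that dampens cytokinin signalling, had 4.89, 3.51 and 3.85 CPM at 8 h, against 19.3, 12.6 and 12.6 CPM at 1 h, and 8.94, 8.14 and 8.50 CPM at 0 h (log2 fold change -1.85 ± 0.25, edgeR adjusted p = 1.14e-05). ARR4 (AT1G10470) had 30.7, 26.4 and 26.3 CPM at 8 h, against 58.7, 63.8 and 62.9 CPM at 1 h, and 70.2, 52.5 and 66.9 CPM at 0 h (log2 fold change -1.15 ± 0.14, edgeR adjusted p = 1.75e-06). Both were lower at 8 h than at either earlier time. CKX6 (AT3G63440), a cytokinin oxidase, had 10.7, 11.5 and 11.5 CPM at 8 h, against 35.9, 33.6 and 27.0 CPM at 1 h, and 7.59, 5.69 and 7.56 CPM at 0 h (log2 fold change -1.51 ± 0.19, edgeR adjusted p = 2.76e-06), so its level at 1 h stood above those at 8 h and 0 h. Of the 20 ethylene genes tested, 7 were called higher by edgeR and 2 lower at 8 h than at 1 h (median log2 fold change -0.04). Leaving out WT 8 h replicate 2, WT 8 h replicate 3, WT 1 h replicate 2 or WT 1 h replicate 3 left 1 called lower. ACS6 (AT4G11280), an ACC synthase of ethylene synthesis, had 6.70, 6.54 and 7.07 CPM at 8 h, against 26.2, 26.4 and 31.6 CPM at 1 h (log2 fold change -2.05 ± 0.25, edgeR adjusted p = 1.99e-06). The receptor gene ERS2 (AT1G04310) had 25.5, 31.9 and 27.2 CPM at 8 h, against 12.1, 12.3 and 11.01 CPM at 1 h (log2 fold change 1.26 ± 0.12, edgeR adjusted p = 4.95e-08). EBF2 (AT5G25350), an F-box protein that removes the factor EIN3, had 239, 251 and 232 CPM at 8 h, against 83.8, 93.2 and 99.2 CPM at 1 h (log2 fold change 1.39 ± 0.12, edgeR adjusted p = 5.76e-09). Both were higher at 8 h without overlap. ETR2 (1.02 ± 0.18, adjusted p = 0.000506 by edgeR), EBF1 (0.60 ± 0.12, adjusted p = 0.00133) and CTR1 (0.55 ± 0.12, adjusted p = 0.00266) were higher too.

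**Figure D3:**
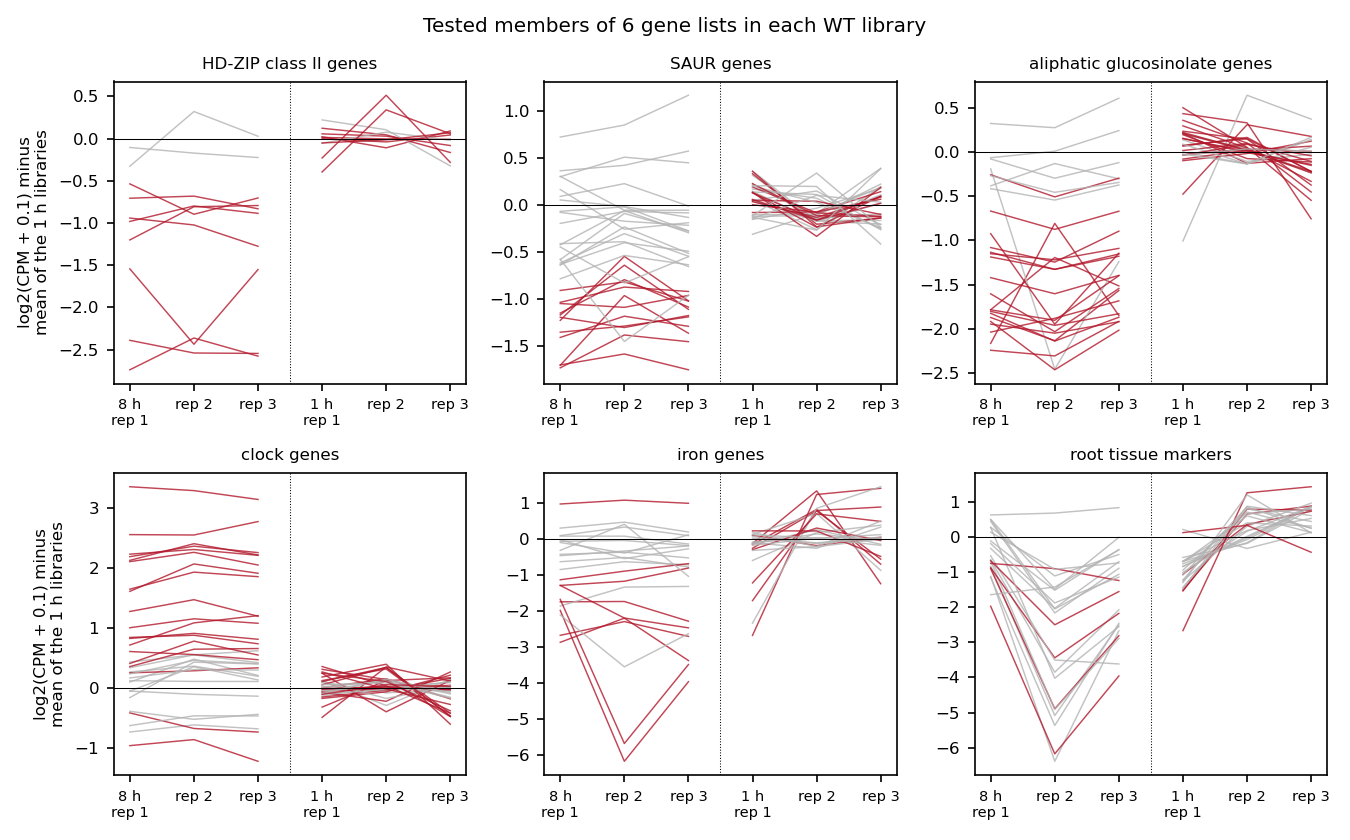
Log2(CPM + 0.1) minus the mean of the 1 h libraries in each WT library, 8 h left and 1 h right, for the tested members of 6 lists. Each line is 1 gene, red where called and grey where not. The called HD-ZIP class II, SAUR and glucosinolate genes lie below 0 in all 3 libraries at 8 h, 17 of 32 clock genes were called higher, and root tissue markers and some iron genes lie low in replicate 2 at 8 h and high in replicates 2 and 3 at 1 h.

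Most genes of aliphatic glucosinolate synthesis were lower at 8 h than at 1 h. Against 0 h, 21 of 26 were called lower at 8 h, as were 5 of 15 indole glucosinolate genes. Of all 21562 genes tested, 1533 were called lower at 8 h than at 0 h. Glucosinolates are sulfur-rich defence compounds of the cabbage family, made from methionine (aliphatic) or tryptophan (indole). Of the 26 aliphatic glucosinolate genes tested, 0 were called higher by edgeR (1 at an unadjusted p under 0.05, 0 by DESeq2) and 19 lower at 8 h than at 1 h (median log2 fold change -1.28). Without WT 8 h replicate 3 the lower count was 14. IPMI1 (AT3G58990), an isopropylmalate isomerase subunit of methionine chain elongation, had 9.77, 6.66 and 9.12 CPM at 8 h, against 38.9, 41.6 and 31.8 CPM at 1 h, and 50.9, 40.9 and 54.4 CPM at 0 h (log2 fold change -2.13 ± 0.26, edgeR adjusted p = 2.24e-06). BAT5 (AT4G12030), a plastid transporter of the chain-elongation keto acids, had 5.42, 5.04 and 5.52 CPM at 8 h, against 27.1, 22.7 and 15.4 CPM at 1 h, and 26.2, 20.5 and 25.5 CPM at 0 h (log2 fold change -2.03 ± 0.28, edgeR adjusted p = 1.40e-05). CYP79F1 (AT1G16410), the first enzyme of core structure formation, had 19.9, 19.0 and 25.0 CPM at 8 h, against 108, 89.7 and 87.3 CPM at 1 h, and 91.7, 87.4 and 107 CPM at 0 h (log2 fold change -2.16 ± 0.43, edgeR adjusted p = 0.00127). For all 3 the libraries at 8 h lay below every library at 1 h and 0 h. The sulfotransferases SOT17 (-1.22 ± 0.15, adjusted p = 3.15e-06 by edgeR) and SOT18 (-1.07 ± 0.15, adjusted p = 1.45e-05), which make the last step of the core, were lower as well. Of the 15 indole glucosinolate genes tested, 0 were called higher by edgeR (0 at an unadjusted p under 0.05, 0 by DESeq2) and 6 lower at 8 h than at 1 h (median log2 fold change -0.78). Without WT 1 h replicate 3 the lower count was 4, and CYP83B1 and SOT16 were not called (edgeR adjusted p = 0.0534 and 0.0525). CYP83B1 was also not called without WT 8 h replicate 2 (adjusted p = 0.0632). With the mean log2 CPM of the root markers as a covariate, 4 indole genes were called lower and 0 higher (median -0.41). Under that covariate 22 aliphatic genes were called lower and 1 higher (median -1.58). GSTF10 (AT2G30870), a glutathione transferase, had 143, 112 and 113 CPM at 8 h, against 250.4, 313 and 406 CPM at 1 h (log2 fold change -1.4 ± 0.20, edgeR adjusted p = 3.02e-05). UGT74B1 (AT1G24100), a glucosyltransferase of both branches, had 36.3, 30.2 and 34.0 CPM at 8 h, against 57.0, 56.3 and 58.8 CPM at 1 h (log2 fold change -0.78 ± 0.08, edgeR adjusted p = 4.38e-07). Of the 18 sulfate assimilation genes tested, 0 were called higher by edgeR (0 at an unadjusted p under 0.05, 0 by DESeq2) and 4 lower at 8 h than at 1 h (median log2 fold change -0.83). With the mean log2 CPM of the root markers as a covariate, 3 were called lower and the median was -0.08. APK2 (AT4G39940), an APS kinase that supplies the sulfate donor of the sulfotransferases, had 25.7, 19.2 and 24.3 CPM at 8 h, against 46.5, 55.6 and 48.4 CPM at 1 h (log2 fold change -1.12 ± 0.15, edgeR adjusted p = 6.72e-06). APK1 (-0.92 ± 0.14, adjusted p = 4.45e-05 by edgeR) and APS3 (-0.78 ± 0.12, adjusted p = 4.91e-05) were lower too. The fourth, APR1, was called only with all libraries: without WT 8 h replicate 1, WT 8 h replicate 2, WT 8 h replicate 3, WT 1 h replicate 1, WT 1 h replicate 2 or WT 1 h replicate 3 the adjusted p was 0.0546 to 0.208.

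**Figure D4:**
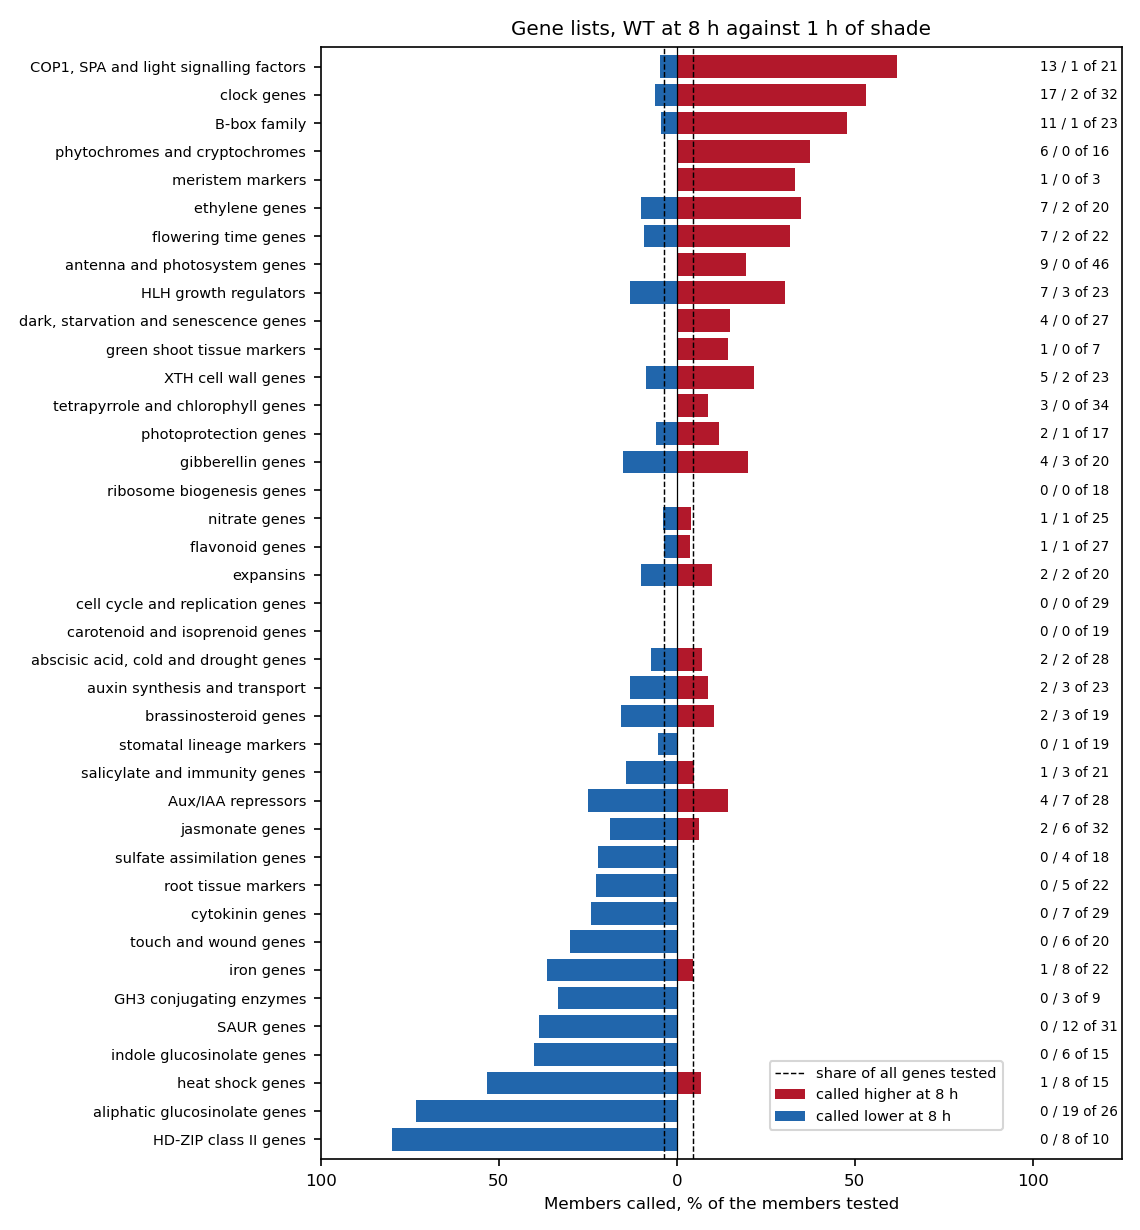
Share of the tested members of each gene list called higher (red, right) and lower (blue, left) at 8 h than at 1 h in WT, in percent, with the counts higher / lower of tested at the right. Dashed lines mark the 4.46% and 3.7% of all genes tested. Aliphatic glucosinolate genes have 19 of 26 lower, clock genes 17 of 32 higher and light signalling factors 13 of 21 higher.

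Photoreceptor and light signalling genes were higher at 8 h or not called, save 1. Of the 16 phytochromes and cryptochromes tested, 6 were called higher by edgeR and 0 lower (0 at an unadjusted p under 0.05, 0 by DESeq2) at 8 h than at 1 h (median log2 fold change 0.35). PHYA (AT1G09570), the phytochrome that acts in far-red-rich light and restrains elongation in deep shade, had 430.1, 368 and 386 CPM at 8 h, against 124, 147 and 119 CPM at 1 h, and 58.6, 85.0 and 60.3 CPM at 0 h (log2 fold change 1.60 ± 0.25, edgeR adjusted p = 6.50e-05). The UV-B receptor gene UVR8 (0.36 ± 0.07, adjusted p = 0.00190 by edgeR), PHYE (0.42 ± 0.09, adjusted p = 0.00247) and the cryptochrome inhibitor gene BIC2 (1.02 ± 0.18, adjusted p = 0.000285) were higher. Of the 21 COP1, SPA and light signalling genes tested, 13 were called higher and 1 lower (median 0.89). PIF4 (AT2G43010) had 65.2, 84.6 and 79.6 CPM at 8 h, against 22.4, 22.9 and 13.8 CPM at 1 h, and 31.7, 31.9 and 27.9 CPM at 0 h (log2 fold change 1.96 ± 0.21, edgeR adjusted p = 2.92e-07). PIF3 (AT1G09530) had 39.2, 42.0 and 41.6 CPM at 8 h, against 18.16, 18.23 and 16.7 CPM at 1 h (log2 fold change 1.21 ± 0.14, edgeR adjusted p = 9.75e-07). PIF5 (AT3G59060) had 94.5, 93.0 and 94.8 CPM at 8 h, against 34.9, 30.4 and 26.3 CPM at 1 h (log2 fold change 1.62 ± 0.21, edgeR adjusted p = 5.45e-06). The transcripts of these PIF genes at 8 h lay above those at both earlier times. PIF7 (AT5G61270) differed: with 14.3, 17.8 and 14.8 CPM at 8 h, against 8.08, 7.02 and 9.62 CPM at 1 h, and 20.1, 15.8 and 20.9 CPM at 0 h, its level at 1 h was the lowest (log2 fold change 0.93 ± 0.22, edgeR adjusted p = 0.00780). HY5 was also lowest at 1 h, with 26.1, 23.4 and 19.5 CPM at 8 h, against 10.7, 12.7 and 12.3 CPM at 1 h, and 20.4, 16.3 and 19.2 CPM at 0 h (log2 fold change 0.95 ± 0.13, edgeR adjusted p = 1.61e-05). PKS4 (AT5G04190), a phytochrome-interacting protein of phototropism, had 23.9, 23.0 and 22.1 CPM at 8 h, against 7.64, 7.97 and 5.74 CPM at 1 h, and 1.94, 1.35 and 1.71 CPM at 0 h (log2 fold change 1.69 ± 0.23, edgeR adjusted p = 1.15e-05). The 1 gene called lower, LAF1, averaged under 1 CPM in both groups, and without WT 8 h replicate 2, WT 8 h replicate 3, WT 1 h replicate 2 or WT 1 h replicate 3 the adjusted p was 0.122 to 0.205.

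Genes of the B-box family, zinc-finger factors that act with or against HY5, also had more members higher than lower. Of the 23 B-box genes tested, 11 were called higher by edgeR and 1 lower at 8 h than at 1 h (median log2 fold change 0.56). In fits with a single WT library at 8 h or 1 h left out, 8 to 10 were called higher. BBX28 (AT4G27310), which hinders HY5 binding, had 54.8, 60.7 and 56.7 CPM at 8 h, against 16.5, 16.9 and 10.5 CPM at 1 h, and 14.4, 8.41 and 13.2 CPM at 0 h (log2 fold change 1.97 ± 0.24, edgeR adjusted p = 2.49e-06). BBX25 (AT2G31380) had 52.1, 54.3 and 53.5 CPM at 8 h, against 24.4, 19.7 and 26.6 CPM at 1 h (log2 fold change 1.18 ± 0.21, edgeR adjusted p = 0.000490). COL5 (AT5G57660) had 256.5, 253 and 264 CPM at 8 h, against 102, 105 and 82.8 CPM at 1 h, and 32.3, 42.6 and 33.3 CPM at 0 h (log2 fold change 1.42 ± 0.21, edgeR adjusted p = 2.98e-05), so it was higher at each later time. BBX18 (1.36 ± 0.26, adjusted p = 0.000773 by edgeR) and BBX22 (1.06 ± 0.21, adjusted p = 0.00102) were higher at 8 h than at 1 h and at 8 h stood near their levels at 0 h (0.09 ± 0.25, adjusted p = 0.845 and 0.20 ± 0.20, adjusted p = 0.525 for 8 h over 0 h). The 1 gene called lower was BBX14 (-0.65 ± 0.15, adjusted p = 0.00627 by edgeR), and without WT 1 h replicate 3 the adjusted p was 0.123.

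ELIP1 and ELIP2, early light-induced proteins that bind pigments in the thylakoid, were among the highest. ELIP1 (AT3G22840) had 304, 127 and 151 CPM at 8 h, against 5.20, 10.7 and 4.80 CPM at 1 h, and 25.5, 9.54 and 18.8 CPM at 0 h (log2 fold change 4.82 ± 0.48, edgeR adjusted p = 1.12e-07). ELIP2 (AT4G14690) had 77.0, 21.1 and 27.8 CPM at 8 h, against 4.53, 4.27 and 7.45 CPM at 1 h, and 14.7, 10.5 and 13.3 CPM at 0 h (log2 fold change 2.95 ± 0.45, edgeR adjusted p = 5.84e-05). Every library at 8 h was above every earlier one, and replicate 1 was the highest of the 8 h libraries for both. Of the 17 photoprotection genes tested, 2 were called higher by edgeR and 1 lower at 8 h than at 1 h (median log2 fold change 0.04). The lower one was CSD1, and without WT 8 h replicate 1, WT 8 h replicate 2, WT 8 h replicate 3 or WT 1 h replicate 2 the adjusted p was 0.0720 to 0.400. Of the 46 antenna and photosystem genes tested, 9 were called higher by edgeR and 0 lower (1 at an unadjusted p under 0.05, 1 by DESeq2) at 8 h than at 1 h (median log2 fold change 0.30). With WT 1 h replicate 3 left out, 4 were called higher. LHCA1 (AT3G54890), an antenna protein of photosystem I, had 4743, 5751 and 5584 CPM at 8 h, against 2666, 2663 and 1926 CPM at 1 h (log2 fold change 1.15 ± 0.27, edgeR adjusted p = 0.00559). LHCB3 of photosystem II had 4328, 4942 and 4812 CPM at 8 h, against 2082, 2281 and 1581 CPM at 1 h (log2 fold change 1.24 ± 0.29, edgeR adjusted p = 0.00676), and without WT 1 h replicate 3 the adjusted p was 0.0503. Both sets of libraries were apart, but with root marker score as a covariate only 2 antenna and photosystem genes were called higher and 2 lower. LHCB1 and LHCB2 genes share sequence and their values are uncertain. Of the 7 green shoot tissue markers tested, 1 was called higher by edgeR and 0 lower (0 at an unadjusted p under 0.05, 0 by DESeq2) at 8 h than at 1 h (median log2 fold change 0.12). Of the 34 tetrapyrrole and chlorophyll genes tested, 3 were called higher by edgeR and 0 lower (2 at an unadjusted p under 0.05, 0 by DESeq2) at 8 h than at 1 h (median log2 fold change -0.03). Among them GLK2, a factor for chloroplast genes, had 191, 207 and 206 CPM at 8 h, against 117, 106 and 126 CPM at 1 h (log2 fold change 0.79 ± 0.17, edgeR adjusted p = 0.00282).

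Clock genes formed the list with the most members called higher. Of the 32 clock genes tested, 17 were called higher by edgeR and 2 lower at 8 h than at 1 h (median log2 fold change 0.53). When WT 8 h replicate 2, WT 8 h replicate 3, WT 1 h replicate 2 or WT 1 h replicate 3 was left out, 1 was called lower. The seedlings were grown in continuous light, and these times differ in clock time as well as in shade. PRR7 (AT5G02810), a pseudo-response regulator that represses morning genes, had 94.4, 114 and 100.5 CPM at 8 h, against 23.5, 26.9 and 15.6 CPM at 1 h, and 33.8, 34.6 and 30.2 CPM at 0 h (log2 fold change 2.23 ± 0.21, edgeR adjusted p = 3.64e-08). LNK1 (AT5G64170), a co-activator of afternoon genes, had 69.2, 78.1 and 72.5 CPM at 8 h, against 15.7, 19.2 and 11.2 CPM at 1 h, and 23.3, 16.7 and 23.1 CPM at 0 h (log2 fold change 2.25 ± 0.18, edgeR adjusted p = 4.49e-09). CDF3 (AT3G47500), a DOF factor degraded through GI, had 57.6, 70.1 and 66.5 CPM at 8 h, against 19.7, 23.2 and 13.2 CPM at 1 h (log2 fold change 1.79 ± 0.18, edgeR adjusted p = 9.38e-08). PRR9 was higher as well (3.32 ± 0.36, adjusted p = 4.38e-07 by edgeR), but 28.6% of its 50-base stretches occur in other transcripts and its value is uncertain. Called lower was RVE2, a MYB factor of the morning class, with 48.5, 52.0 and 40.4 CPM at 8 h, against 90.0, 81.0 and 114 CPM at 1 h (log2 fold change -1.01 ± 0.20, edgeR adjusted p = 0.00103). CCA1 had 56.7, 65.8 and 69.0 CPM at 8 h, against 47.6, 42.4 and 43.9 CPM at 1 h (log2 fold change 0.52 ± 0.35, edgeR adjusted p = 0.395) and LHY 77.5, 84.1 and 80.4 CPM at 8 h, against 140.1, 105 and 143 CPM at 1 h (log2 fold change -0.68 ± 0.44, edgeR adjusted p = 0.360). CCA1 and LHY, the morning repressors at the core of the clock, were not called. Of the 22 flowering time genes tested, 7 were called higher by edgeR and 2 lower at 8 h than at 1 h (median log2 fold change 0.25). With WT 8 h replicate 1, WT 8 h replicate 2 or WT 1 h replicate 2 left out, 1 was called lower. The number called higher was 5 without WT 8 h replicate 2, WT 8 h replicate 3 or WT 1 h replicate 3. SOC1 and FPF1 were not called in those 3 fits (edgeR adjusted p 0.0863 to 0.194). FT (AT1G65480), the florigen gene, had 5.73, 8.93 and 9.35 CPM at 8 h, against 2.35, 2.37 and 2.58 CPM at 1 h, and 1.45, 0.797 and 1.71 CPM at 0 h (log2 fold change 1.72 ± 0.36, edgeR adjusted p = 0.00244). TEM1 (AT1G25560), a repressor of FT, had 92.2, 98.3 and 98.6 CPM at 8 h, against 29.1, 29.5 and 34.0 CPM at 1 h (log2 fold change 1.64 ± 0.14, edgeR adjusted p = 6.11e-09). Both an activator and a repressor of flowering were thus higher at 8 h. The 2 called lower were TSF and BFT (log2 fold changes of -2.80 to -2.47). For BFT without WT 8 h replicate 1, WT 8 h replicate 2 or WT 1 h replicate 2 the edgeR adjusted p was 0.0711 to 0.105.

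Cell wall genes differed within families. Of the 23 XTH cell wall genes tested, 5 were called higher by edgeR and 2 lower at 8 h than at 1 h (median log2 fold change -0.16). The lower count was 1 without WT 8 h replicate 1, WT 8 h replicate 2, WT 8 h replicate 3, WT 1 h replicate 1, WT 1 h replicate 2 or WT 1 h replicate 3. Leaving out any single WT library at 8 h or 1 h other than WT 8 h replicate 1 left 4 called higher. XTH6 was not called in those fits (edgeR adjusted p 0.0594 to 0.191). XTHs cut and rejoin xyloglucan. XTH15 (AT4G14130) had 166, 179 and 174 CPM at 8 h, against 10.02, 15.4 and 13.5 CPM at 1 h, and 6.72, 10.4 and 7.26 CPM at 0 h (log2 fold change 3.74 ± 0.36, edgeR adjusted p = 6.53e-08). XTH8 (AT1G11545) had 60.1, 65.6 and 71.0 CPM at 8 h, against 22.7, 29.2 and 32.0 CPM at 1 h (log2 fold change 1.23 ± 0.13, edgeR adjusted p = 4.38e-07). XTH31 (AT3G44990) had 40.3, 33.8 and 40.2 CPM at 8 h, against 56.7, 100.2 and 106 CPM at 1 h (log2 fold change -1.202 ± 0.22, edgeR adjusted p = 0.000473). XTH15 and XTH8 were thus higher, and XTH31 lower, in every library at 8 h. Of the 20 expansins tested, 2 were called higher by edgeR and 2 lower at 8 h than at 1 h (median log2 fold change -0.14). The number called lower was 0 without WT 8 h replicate 2, WT 8 h replicate 3 or WT 1 h replicate 2. Leaving out WT 1 h replicate 1 or WT 1 h replicate 3 left 1 called lower. EXPA3 (AT2G37640) had 83.3, 99.7 and 103 CPM at 8 h, against 47.5, 40.9 and 45.4 CPM at 1 h (log2 fold change 1.097 ± 0.10, edgeR adjusted p = 2.85e-08) and EXPA11 (AT1G20190) had 23.9, 26.0 and 28.9 CPM at 8 h, against 9.14, 9.66 and 10.7 CPM at 1 h (log2 fold change 1.42 ± 0.17, edgeR adjusted p = 1.74e-06).

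The other genes among the 15 highest belong to several functions. ADS1 (AT1G06080), a fatty acid desaturase, had 63.4, 84.4 and 71.1 CPM at 8 h, against 4.97, 7.16 and 4.80 CPM at 1 h, and 4.33, 4.92 and 4.55 CPM at 0 h (log2 fold change 3.69 ± 0.23, edgeR adjusted p = 4.45e-11). FAR1 of AT5G22500, a fatty acyl-CoA reductase and not the light signalling factor of the same symbol, had 190.5, 141 and 154 CPM at 8 h, against 13.9, 18 and 10.8 CPM at 1 h, and 9.73, 10.1 and 10.1 CPM at 0 h (log2 fold change 3.5 ± 0.27, edgeR adjusted p = 2.17e-09). CYP707A2 (AT2G29090), which breaks down abscisic acid, had 17.7, 22.0 and 21.4 CPM at 8 h, against 3.38, 2.88 and 2.46 CPM at 1 h (log2 fold change 2.81 ± 0.41, edgeR adjusted p = 3.05e-05). MYBL2 (AT1G71030), a repressor of anthocyanin synthesis, had 60.3, 86.5 and 76.7 CPM at 8 h, against 15.5, 13.1 and 5.82 CPM at 1 h (log2 fold change 2.71 ± 0.35, edgeR adjusted p = 6.22e-06). In none of these did an 8 h library fall within the range at 1 h. The related genes CYP707A3 and CYP707A1 were called lower at 8 h by edgeR (log2 fold changes of -1.82 to -1.18). CYP707A1 was not called without WT 8 h replicate 1, 2 or 3 or WT 1 h replicate 2 or 3 (edgeR adjusted p up to 0.209). The remaining genes among the 15 highest were IQD12 (2.61 ± 0.34, adjusted p = 7.49e-06 by edgeR), the kinases SRK2H (2.39 ± 0.27, adjusted p = 8.70e-07) and CIPK20 (2.27 ± 0.33, adjusted p = 2.79e-05), the oxysterol-binding protein gene ORP4C (2.38 ± 0.35, adjusted p = 3.05e-05), GI (2.63 ± 0.23, adjusted p = 9.62e-09) and DIN1 (2.14 ± 0.61, adjusted p = 0.0263). DIN1 is induced by darkness and sugar starvation, and without WT 8 h replicate 1, WT 8 h replicate 2, WT 1 h replicate 1, WT 1 h replicate 2 or WT 1 h replicate 3 the adjusted p was 0.0505 to 0.112. Of the 27 dark, starvation and senescence genes tested, 4 were called higher by edgeR and 0 lower (2 at an unadjusted p under 0.05, 0 by DESeq2) at 8 h than at 1 h (median log2 fold change 0.06). The senescence factors ORE1 (AT5G39610), with 12.4, 10.5 and 11.5 CPM at 8 h, against 2.82, 3.43 and 3.12 CPM at 1 h (log2 fold change 1.88 ± 0.28, edgeR adjusted p = 3.10e-05), and NAP (2.78 ± 0.40, adjusted p = 2.85e-05 by edgeR) were higher, as was the sugar transporter STP1 (1.01 ± 0.19, adjusted p = 0.000628).

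Heat shock, touch and defence genes had more members lower than higher. Of the 15 heat shock genes tested, 1 was called higher by edgeR and 8 lower at 8 h than at 1 h (median log2 fold change -0.45). When WT 8 h replicate 3, WT 1 h replicate 2 or WT 1 h replicate 3 was left out, 0 were called higher. With WT 8 h replicate 3 left out, 5 were called lower. HSP70 (AT3G12580), a cytosolic chaperone, had 11.03, 7.28 and 12.2 CPM at 8 h, against 26.2, 45.9 and 66.3 CPM at 1 h, and 16.2, 25.5 and 19.8 CPM at 0 h (log2 fold change -2.18 ± 0.37, edgeR adjusted p = 0.000201). HSP90.1 (AT5G52640) had 5.32, 5.19 and 5.66 CPM at 8 h, against 9.23, 16.0 and 18.01 CPM at 1 h (log2 fold change -1.42 ± 0.21, edgeR adjusted p = 4.45e-05) and MBF1C (AT3G24500), a heat-inducible co-activator, had 4.52, 4.21 and 4.07 CPM at 8 h, against 9.14, 10.9 and 14.2 CPM at 1 h (log2 fold change -1.42 ± 0.20, edgeR adjusted p = 2.79e-05). These 3 were lower in all libraries at 8 h. HSP22.0, the 1 called higher, is at under 1 CPM and lies beside BBX23. Of the 20 touch and wound genes tested, 0 were called higher by edgeR (0 at an unadjusted p under 0.05, 0 by DESeq2) and 6 lower at 8 h than at 1 h (median log2 fold change -0.67). The lower count was 0 without WT 8 h replicate 2, WT 8 h replicate 3 or WT 1 h replicate 3. DIC2 (AT4G24570), a mitochondrial dicarboxylate carrier, had 4.69, 2.80 and 4.37 CPM at 8 h, against 15.1, 13.9 and 16.8 CPM at 1 h (log2 fold change -1.95 ± 0.51, edgeR adjusted p = 0.0148), and without WT 8 h replicate 2, WT 8 h replicate 3 or WT 1 h replicate 3 the adjusted p was 0.0512 to 0.0975. Of the 32 jasmonate genes tested, 2 were called higher by edgeR and 6 lower at 8 h than at 1 h (median log2 fold change -0.35). The number called lower was 2 without WT 8 h replicate 2. Leaving out WT 1 h replicate 2 or WT 1 h replicate 3 left 3 called lower. MYC4 (AT4G17880), a bHLH factor of jasmonate and glucosinolate regulation, had 18.6, 18.8 and 19.6 CPM at 8 h, against 26.8, 24.0 and 29.3 CPM at 1 h (log2 fold change -0.49 ± 0.08, edgeR adjusted p = 9.60e-05). ST2A (AT5G07010), a sulfotransferase that inactivates hydroxyjasmonate, had 172, 131 and 155 CPM at 8 h, against 25.1, 37.4 and 47.1 CPM at 1 h, and 1.91, 1.04 and 1.09 CPM at 0 h (log2 fold change 2.06 ± 0.46, edgeR adjusted p = 0.00417). Of the 21 salicylate and immunity genes tested, 1 was called higher by edgeR and 3 lower at 8 h than at 1 h (median log2 fold change -0.31). When WT 8 h replicate 2 or WT 1 h replicate 3 was left out, 1 was called lower. FLS2 (AT5G46330), the flagellin receptor, was the 1 called higher and had 52.4, 52.6 and 56.9 CPM at 8 h, against 20.7, 20.1 and 28.1 CPM at 1 h (log2 fold change 1.23 ± 0.22, edgeR adjusted p = 0.000339). Of the 28 abscisic acid, cold and drought genes tested, 2 were called higher by edgeR and 2 lower at 8 h than at 1 h (median log2 fold change -0.03). With WT 8 h replicate 2, WT 8 h replicate 3, WT 1 h replicate 1 or WT 1 h replicate 3 left out, 1 was called higher. The lower count was 1 without WT 8 h replicate 1, WT 8 h replicate 2, WT 8 h replicate 3, WT 1 h replicate 2 or WT 1 h replicate 3.

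Iron genes had members called lower at 8 h, with a wide spread between libraries. Of the 22 iron genes tested, 1 was called higher by edgeR and 8 lower at 8 h than at 1 h (median log2 fold change -0.68). The number called higher was 0 without WT 1 h replicate 2. Leaving out WT 8 h replicate 3 or WT 1 h replicate 2 left 1 called lower. When WT 8 h replicate 2 was left out, 2 were called lower. With WT 8 h replicate 1 left out, 5 were called lower. BHLH38 (AT3G56970), a bHLH factor of the iron deficiency response, had 3.12, 4.097 and 3.06 CPM at 8 h, against 18.8, 52.0 and 8.60 CPM at 1 h, and 22.8, 5.03 and 13.2 CPM at 0 h (log2 fold change -2.95 ± 0.80, edgeR adjusted p = 0.0200), and without WT 8 h replicate 1, WT 8 h replicate 2, WT 8 h replicate 3 or WT 1 h replicate 2 the adjusted p was 0.0560 to 0.159. BHLH100 (AT2G41240), of the same subgroup, had 5.42, 8.69 and 3.78 CPM at 8 h, against 36.2, 71.3 and 24.8 CPM at 1 h (log2 fold change -2.89 ± 0.72, edgeR adjusted p = 0.0108), and without WT 8 h replicate 3 or WT 1 h replicate 2 the adjusted p was 0.0661 to 0.0756. IRT1 (AT4G19690), the root iron transporter, had 6.05, 0.236 and 1.46 CPM at 8 h, against 3.70, 57.4 and 64.7 CPM at 1 h (log2 fold change -4.00 ± 1.2, edgeR adjusted p = 0.0367), and without WT 8 h replicate 2, WT 8 h replicate 3, WT 1 h replicate 2 or WT 1 h replicate 3 the adjusted p was 0.0878 to 0.156. IRT1 libraries overlapped between the times and were high in replicates 2 and 3 at 1 h, as were the summed root markers, while BHLH38 and BHLH100 were highest in replicate 2 and lowest in replicate 3 at 1 h. NAS1 (AT5G04950), a nicotianamine synthase, had 21.4, 23.2 and 29.9 CPM at 8 h, against 42.7, 64.8 and 51.0 CPM at 1 h (log2 fold change -1.09 ± 0.18, edgeR adjusted p = 0.000209), and its call held with each library left out. Of the 22 root markers, IRT1 included, 5 were called lower (median -1.42). The lower count was 0 without WT 8 h replicate 2, WT 8 h replicate 3 or WT 1 h replicate 2. The number called lower was 1 without WT 1 h replicate 3. Leaving out WT 8 h replicate 1 left 8 called lower. CASP1 (AT2G36100), of the endodermal Casparian strip, had 5.20, 0.236 and 1.32 CPM at 8 h, against 3.38, 15.5 and 18.1 CPM at 1 h (log2 fold change -2.43 ± 0.74, edgeR adjusted p = 0.0394), and without WT 8 h replicate 2, WT 8 h replicate 3, WT 1 h replicate 2 or WT 1 h replicate 3 the adjusted p was 0.103 to 0.171. The root marker score of a library is the mean log2 CPM of the 22 root markers, IRT1 included. With this score as a covariate 0 iron genes were called higher and 3 lower. Over all genes the fit with this covariate called 1710, of which 997 were among the 1760. In that fit 2 GH3 conjugating enzymes were called higher and 1 lower, 4 jasmonate genes higher and 3 lower, 2 salicylate and immunity genes higher and 1 lower, and 5 heat shock genes lower. It also called 4 auxin synthesis and transport genes higher. In it 0 root markers were called lower, but the score is made from these same markers, so that outcome was largely set in advance. ADH1 (AT1G77120), of anaerobic metabolism, is in none of the lists and was among the 15 lowest. It had 3.58, 1.95 and 3.102 CPM at 8 h, against 3.91, 37.2 and 3.92 CPM at 1 h (log2 fold change -2.38 ± 0.54, edgeR adjusted p = 0.00453), and without WT 1 h replicate 2 the adjusted p was 0.475, so its call rests on replicate 2 at 1 h. ABCG6 (AT5G13580), a transporter of suberin formation, had 3.92, 0.501 and 1.97 CPM at 8 h, against 5.20, 13.2 and 16.9 CPM at 1 h (log2 fold change -2.45 ± 0.75, edgeR adjusted p = 0.0412), and without WT 8 h replicate 2, WT 8 h replicate 3, WT 1 h replicate 2 or WT 1 h replicate 3 the adjusted p was 0.0902 to 0.181. The libraries of both genes did not overlap between the times.

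Other lists had few or no calls. Of 29 cell cycle and replication genes, 18 ribosome biogenesis genes and 19 carotenoid and isoprenoid genes tested, 0 were called by edgeR in either direction, with median log2 fold changes of 0.14, -0.12 and -0.01. At an unadjusted p under 0.05, 2 cell cycle genes were higher and 1 lower, and DESeq2 called 0 higher and 0 lower. At an unadjusted p under 0.05, 0 ribosome biogenesis genes were higher and 1 lower, and DESeq2 called 0 higher and 0 lower. At an unadjusted p under 0.05, 2 carotenoid and isoprenoid genes were higher and 3 lower, and DESeq2 called 2 higher and 0 lower. Of the 27 flavonoid genes tested, 1 was called higher by edgeR and 1 lower at 8 h than at 1 h (median log2 fold change 0.03). MYBL2 was the higher one, and the lower one was not called without WT 8 h replicate 2, WT 8 h replicate 3 or WT 1 h replicate 2. Of the 25 nitrate genes tested, 1 was called higher by edgeR and 1 lower at 8 h than at 1 h (median log2 fold change -0.24). When WT 8 h replicate 1 was left out, 3 were called lower. With WT 1 h replicate 1 left out, 4 were called lower. UPM1 (AT5G40850), of sirohaem synthesis, had 108, 83.02 and 79.7 CPM at 8 h, against 162, 152 and 232 CPM at 1 h (log2 fold change -1.01 ± 0.20, edgeR adjusted p = 0.00165). Of the 3 meristem markers tested, 1 was called higher by edgeR and 0 lower (0 at an unadjusted p under 0.05, 0 by DESeq2) at 8 h than at 1 h (median log2 fold change 0.35), and the 1 was STM, a homeobox gene of the shoot meristem. The higher count was 0 without WT 8 h replicate 2, WT 8 h replicate 3, WT 1 h replicate 2 or WT 1 h replicate 3. The number called higher was 2 without WT 8 h replicate 1. Of the 19 stomatal lineage markers tested, 0 were called higher by edgeR (2 at an unadjusted p under 0.05, 0 by DESeq2) and 1 lower at 8 h than at 1 h (median log2 fold change 0.24). The potassium channel gene KAT1 (AT5G46240) was the 1 called and had 34.2, 38.3 and 36.4 CPM at 8 h, against 81.6, 67.3 and 77.2 CPM at 1 h, and 16.3, 11.99 and 16.2 CPM at 0 h (log2 fold change -1.05 ± 0.19, edgeR adjusted p = 0.000551).

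The hy5 seedlings gave early genes from libraries that the WT comparison does not use. In hy5, 1459 genes (6.77% of those tested) were called between 1 h and 0 h. Of the 780 that were higher at 1 h, 181 (23.2%) were lower in WT at 8 h than at 1 h and 53 (6.80%) were higher, and the 181 are 22.7% of all genes lower in WT. Their median WT log2 fold change was -0.30. Of the 679 that were lower at 1 h in hy5, 185 (27.2%) were higher in WT at 8 h than at 1 h and 16 (2.36%) were lower, and the 185 are 19.2% of all genes higher in WT. Their median was 0.22. Between 8 h and 1 h, 1545 genes (7.17%) were called in hy5. The count was 810 without hy5 8 h replicate 3, 944 without hy5 1 h replicate 1 and 1027 without hy5 1 h replicate 2. Of the 901 that were higher in hy5, 425 (47.2%) were also higher in WT, 44.2% of the WT list, and 0 were lower. Of the 644 that were lower in hy5, 283 (43.9%) were lower in WT, 35.5% of the WT list, and 1 was higher. The 962 genes higher in WT had a median log2 fold change of 0.61 in WT, which chose them, and 0.38 in hy5. The 798 lower genes had medians of -1.06 in WT and -0.67 in hy5.

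In hy5 pif457, 790 genes (3.66%) were called between 8 h and 1 h. Of the 962 genes higher in WT, 100 were called higher in hy5 pif457 and 8 lower, and the median log2 fold change was 0.10 there, against the 0.61 in WT that chose the genes. Of the 798 lower in WT, 73 were called lower and 4 higher, with a median of -0.35. The difference between the WT and hy5 pif457 changes was itself called for 448 genes (2.08%), 291 of them more positive in WT and 157 more negative. That count was 214 without WT 8 h replicate 3, 260 and 233 without hy5 pif457 8 h replicates 1 and 3, and 244, 294 and 294 without hy5 pif457 1 h replicates 1, 2 and 3. The hy5 pif457 libraries also carried more rRNA, 6.01 to 11.6% of counts. XTH15 had 13.8, 12.9 and 11.3 CPM at 8 h, against 12.01, 13.6 and 13.6 CPM at 1 h in hy5 pif457 (difference 3.78 ± 0.48, edgeR adjusted p = 4.50e-05). ELIP1 had 4.05, 4.32 and 1.12 CPM at 8 h, against 1.71, 1.56 and 1.399 CPM at 1 h in hy5 pif457 (difference 3.78 ± 0.69, edgeR adjusted p = 0.00221). ELIP2 had 1.196, 2.202 and 1.47 CPM at 8 h, against 14.2, 8.17 and 7.31 CPM at 1 h in hy5 pif457 and was lower at 8 h there (-2.60 ± 0.48, adjusted p = 0.00310 by edgeR), opposite to WT (difference 5.55 ± 0.66, edgeR adjusted p = 1.29e-05). HAT2 had 16.3, 15.4 and 18.6 CPM at 8 h, against 16.2, 16.9 and 15.2 CPM at 1 h in hy5 pif457 (difference -2.55 ± 0.24, edgeR adjusted p = 2.87e-07). ATHB4 had 2.97, 2.202 and 2.71 CPM at 8 h, against 2.52, 2.68 and 2.18 CPM at 1 h in hy5 pif457 (difference -2.69 ± 0.31, edgeR adjusted p = 1.04e-05). HAT2 and ATHB4 libraries thus overlapped between the times in hy5 pif457. IAA29 had 5.98, 3.169 and 4.79 CPM at 8 h, against 1.02, 1.78 and 1.63 CPM at 1 h in hy5 pif457, and was more negative in WT (difference -2.38 ± 0.41, edgeR adjusted p = 0.00144). The calls of these differences held under each of the 20 alternatives run for them.

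Between WT and hy5 the 8 h to 1 h changes differed for 34 genes (0.158%), 19 more positive and 15 more negative in WT, and 1249 had an unadjusted p under 0.05. Each of the 12 libraries left out in turn moved the count by over 1.5 times, from 6 without hy5 8 h replicate 3 to 176 without hy5 8 h replicate 2. ELIP2 had the largest positive difference among the named genes. In WT it had 77.0, 21.1 and 27.8 CPM at 8 h, against 4.53, 4.27 and 7.45 CPM at 1 h. It had 0.726, 2.52 and 0.988 CPM at 8 h, against 4.39, 2.17 and 3.18 CPM at 1 h in hy5 (difference 4.18 ± 0.66, edgeR adjusted p = 0.00607). ELIP2 was thus higher at 8 h in WT libraries and overlapped between the times in hy5, and its call held with each of the 12 libraries left out, but not in a fit of only the groups compared (edgeR adjusted p = 0.223).

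**Figure D5:**
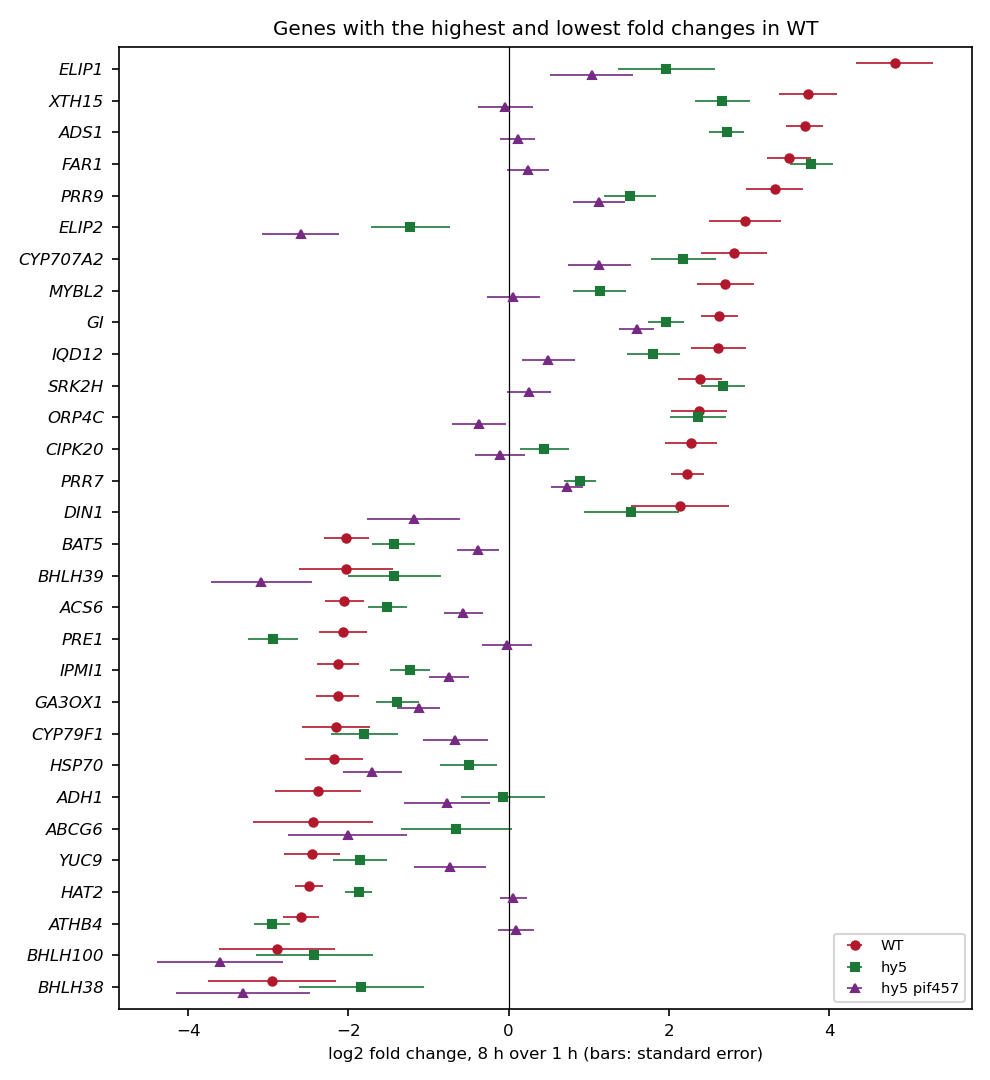
Log2 fold change of 8 h over 1 h with its standard error in WT, hy5 and hy5 pif457 for the 15 highest and 15 lowest named genes of WT. XTH15, HAT2 and ATHB4 differ between the times in WT and lie near 0 in hy5 pif457.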

How the data were processed

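mRNA was measured in whole seedlings with a stranded kit. Per the submitters' processing notes, the authors used STAR 2.5.3a, RSEM 1.3.0 and TAIR10. The deposited table holds expected counts per gene, already whole numbers, and they were used as deposited. Neither the strand setting of the counting nor the release of the annotation is given in the sources used here, so overlapping antisense genes cannot be told apart.

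All 36 libraries (12 groups of 3 biological replicates by genotype and time; totals 30846115 to 58025421 counts) entered 1 edgeR 4.0.16 fit in R 4.3.3, with TMM scaling, filterByExpr (minimum count 10, minimum total count 15) and the 2-sided quasi-likelihood F-test. P values were adjusted by Benjamini-Hochberg over the genes tested and called under 0.05. Standard errors are the fold change divided by the root of its F statistic. The test was also run on counts simulated with the same spread for every gene, which is simpler than in these libraries. The outcome is not reported here. P values measure the spread between these replicates only.

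The comparisons, the 39 lists (872 genes, 850 tested) and the named genes were chosen with earlier results of these data known. Named were HY5, PIF4, PIF5 and PIF7, the 15 highest and 15 lowest called genes (mean log2 CPM at least 2, a symbol, no overlap between groups), members of the lists, and the 3 highest and 3 lowest of each difference between genotypes. Alternatives were RLE factors, DESeq2 1.42.0, other filters, other sets of libraries, a replicate block and a root marker score as covariate. The fit of only the groups compared with that covariate, and leaving out mutant and 0 h libraries, were added after seeing the data. Of 32833 identifiers, 32548 matched the RefSeq TAIR10.1 table, which gave names and promoters. Figures used matplotlib 3.10.9 in Python 3.11.15.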

Additional observations from a re-analysis of the deposited data

Results flagged for a closer look

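For 12 results the log2 change between 8 h and 1 h differed between WT and a mutant by the test of that difference, given as WT minus the mutant. Between WT and hy5 pif457 they were ELIP2 (5.55 ± 0.66, edgeR adjusted p = 1.29e-05), ELIP1 (3.78 ± 0.69, edgeR adjusted p = 0.00221), XTH15 (3.78 ± 0.48, edgeR adjusted p = 4.50e-05), ATHB4 (-2.69 ± 0.31, edgeR adjusted p = 1.04e-05), HAT2 (-2.55 ± 0.24, edgeR adjusted p = 2.87e-07) and IAA29 (-2.38 ± 0.41, edgeR adjusted p = 0.00144).

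Between WT and hy5 they were ELIP2 (4.18 ± 0.66, edgeR adjusted p = 0.00607) and 5 other genes. ELIP2 was not called in a fit of only the groups compared (adjusted p = 0.223), 1 of 21 alternatives. BBX28 differed by 1.74 ± 0.33, edgeR adjusted p = 0.0277. In WT it had 54.8, 60.7 and 56.7 CPM at 8 h, against 16.5, 16.9 and 10.5 CPM at 1 h, and in hy5 44.5, 81.3 and 37.9 CPM at 8 h, against 41.8, 41.4 and 55.6 CPM at 1 h. The hy5 libraries overlapped between the times and replicate 2 was the highest at 8 h. BBX28 was not called under 8 of 21 alternatives, with an adjusted p of up to 0.372. RUP2, a repressor of the UV-B receptor UVR8, differed by 1.52 ± 0.32, edgeR adjusted p = 0.0405, and was not called under 14 of 21 alternatives, with an adjusted p of up to 0.533. JMJ30, a histone demethylase gene that cycles with the clock, differed by -2.00 ± 0.41, edgeR adjusted p = 0.0389. In WT it had 36.5, 37.5 and 33.1 CPM at 8 h, against 52.7, 55.8 and 54.4 CPM at 1 h, and in hy5 80.7, 19.5 and 92.8 CPM at 8 h, against 23.9, 30.9 and 18.5 CPM at 1 h. Replicate 2 of hy5 at 8 h was far below the other two. JMJ30 was not called under 14 of 21 alternatives, with an adjusted p of up to 0.580. SQE5, a squalene epoxidase gene, differed by -1.44 ± 0.29, edgeR adjusted p = 0.0314, and was not called under 12 of 21 alternatives, with an adjusted p of up to 0.494. ISA3, a starch debranching enzyme gene, differed by -1.14 ± 0.24, edgeR adjusted p = 0.0427, and was not called under 16 of 21 alternatives, with an adjusted p of up to 0.452.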

How the results depend on the processing

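The 1760 genes called between WT 8 h and 1 h became 986 in a fit of only the groups compared (852 shared with the 1760) and 515 with the root marker score added to that fit. With single libraries left out the count ran from 979 to 2003 and the share called higher from 47.5% to 69.1%, against 54.7% with all. RLE factors gave 1765, no filter 1666, DESeq2 2373 and the root marker score in the full fit 1710 (997 shared). Between WT 8 h and 1 h, libraries of the same replicate number had correlations of -0.67 to -0.14 in their deviations from the group mean. With 3 libraries a group this cannot tell whether the numbers pair the libraries. With the replicate block 1427 genes were called for WT 8 h against 1 h, 23 for WT minus hy5 and 389 for WT minus hy5 pif457.

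The 34 genes of WT minus hy5 became 1 with only the groups compared, 5 without the 12 libraries rich in rRNA, 17 with the root marker score and 102 with DESeq2, and ran from 6 to 176 with single libraries left out. The 448 genes of WT minus hy5 pif457 became 1027 with only the groups compared, 1022 with the root marker score and 780 with DESeq2, and ran from 214 to 445 with single libraries left out. The cause of these moves was not tested.

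Of 142 called genes among 169 followed through the alternatives, 87 kept their call in all and 112 with each single WT library left out. DESeq2, RLE factors and the stricter filter kept all 142, while the root marker score kept 116 and, with only the groups compared, 93. The root marker gene MYB36, itself part of that score, was near 0 there, with a log2 fold change of 0.009. Medians over all genes moved by under 0.1 between settings. With 3 libraries a group and unequal root marker content, small changes of genes expressed in roots were not detectable with confidence.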

Other observations

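Some genes outside the lists, chosen after their values were seen, were at or near 0 in one of the groups. CYP96A5 (AT2G21910), a cytochrome P450 gene, had 19.4, 18.3 and 21.2 CPM at 8 h, against 0, 0.109 and 0.0709 CPM at 1 h, and 0, 0 and 0 CPM at 0 h (edgeR adjusted p = 1.46e-05). AT5G44440, of the berberine bridge enzyme family, had 9.65, 22.2 and 25.1 CPM at 8 h, against 0.0588, 0.0272 and 0.260 CPM at 1 h, and 0, 0.0550 and 0.0295 CPM at 0 h (adjusted p = 4.67e-05). Both were under 1 CPM in every WT library before 8 h. In hy5 both were higher at 8 h too (adjusted p = 1.21e-05 and 0.000188), and neither was called in hy5 pif457 (0.357 and 0.827). FLA5 (AT4G31370), a fasciclin-like arabinogalactan protein gene, had 5.01, 4.303 and 3.95 CPM at 8 h, against 0.499, 0.435 and 0.354 CPM at 1 h, and 0.0509, 0.0275 and 0.0590 CPM at 0 h (log2 fold change 3.36 ± 0.59, edgeR adjusted p = 0.000390), so it was higher at each later time. DOG1 (AT5G45830), known as a seed dormancy gene, had 3.07, 4.39 and 3.172 CPM at 8 h, against 0.470, 0.490 and 0.236 CPM at 1 h (log2 fold change 3.15 ± 0.41, edgeR adjusted p = 6.22e-06). HMT3 (AT3G22740), a homocysteine methyltransferase that makes methionine, had 0.242, 0.0295 and 0.141 CPM at 8 h, against 4.70, 4.08 and 2.77 CPM at 1 h, and 6.67, 3.35 and 7.47 CPM at 0 h (log2 fold change -4.72 ± 0.57, edgeR adjusted p = 2.08e-06). HMT3 was thus near 0 at 8 h and above 2 CPM in each library at both earlier times. PAP5 (AT1G52940), a purple acid phosphatase gene, had 0 counts in all 3 libraries at 1 h and averaged 1.44 CPM at 8 h, at least 17.9-fold higher taking 3 counts per library as the floor (edgeR adjusted p = 0.00321). MYB72 (AT1G56160), a root iron-response factor, had 0 counts in all libraries at 8 h and averaged 0.325 CPM at 1 h, where the summed root markers were also higher in replicates 2 and 3 and its counts were 3, 17 and 18. At the same floor it was at least 4.22-fold lower at 8 h (adjusted p = 0.0222).

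The precursors of trans-acting siRNAs TAS2, TAS1B and TAS1C were called lower at 8 h, with the highest of the 6 values of each in replicate 1 at 1 h. TAS2 (AT2G39681) had 2.37, 4.57 and 2.77 CPM at 8 h, against 10.2, 4.00 and 3.95 CPM at 1 h (log2 fold change -0.90 ± 0.27, edgeR adjusted p = 0.0381), and without WT 8 h replicate 1, WT 8 h replicate 3 or WT 1 h replicate 1 the adjusted p was 0.134 to 0.512. TAS1B (-0.69 ± 0.20, adjusted p = 0.0285 by edgeR) and TAS1C (-0.67 ± 0.19, adjusted p = 0.0294) were called too. For TAS1B without WT 8 h replicate 1, WT 8 h replicate 3 or WT 1 h replicate 1 the adjusted p was 0.0994 to 0.354, and for TAS1C without WT 8 h replicate 1, WT 8 h replicate 3 or WT 1 h replicate 1 the adjusted p was 0.101 to 0.326.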
